A study of Homo sapiens with 6 samples.

Results

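The 9 genes described here are FN1, VIM, ZEB1, ZEB2, SNAI1, SNAI2, TWIST1, PRRX1 and SPARC, 9 of the 33578 genes measured in the series. They are a list of symbols set with earlier results of these data known, with no threshold on their values, and each is represented by a probe set whose platform annotation gives exactly 1 symbol, and where a gene had several such probe sets, by the one with the highest mean over all 6 arrays. The arrays carried RNA of KPL4, an established human inflammatory breast cancer cell line, from 3 samples labelled ERβ Knockout, in which CRISPR/Cas9 had been used against ESR2, the gene for estrogen receptor beta, and from 3 samples labelled Control. All 6 were grown without further treatment in the same medium with serum, insulin and hydrocortisone. The labels give no clone or pool for the knockout cells, no account of what the control cells received, and no word on whether the biological replicates were separate cultures, so the p-values below cover array-to-array variation that may be technical.

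In epithelial-mesenchymal transition, epithelial cells loosen their junctions, rearrange their cytoskeleton and begin to make and bind interstitial matrix. The zinc finger proteins ZEB1, ZEB2, SNAI1 and SNAI2 and the basic helix-loop-helix protein TWIST1 repress E-cadherin and other epithelial genes, the SNAI and ZEB proteins by binding E-box motifs, and PRRX1 is a homeobox factor of mesenchyme. Fibronectin (FN1), vimentin (VIM) and the collagen-binding protein SPARC are commonly used as mesenchymal readouts, although many carcinoma lines make fibronectin while keeping an epithelial character.

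The promoters of 3 genes are shown because the results separate FN1, which was expressed, from VIM and ZEB1, which were not shown to be above background. They are RefSeq sequences of build GRCh38.p14, 250 bases before to 50 bases after the start site, and capitals mark E-boxes (CANNTG), the cAMP response element TGACGTCA and GC boxes (GGGCGG), on either strand. FN1 lies at chr2:215436019-215436318 on the minus strand, VIM at chr10:17227991-17228290 on the plus strand, and the ZEB1 entry, the one with the most CACCTG matches, at chr10:31318966-31319265 on the plus strand.
FN1: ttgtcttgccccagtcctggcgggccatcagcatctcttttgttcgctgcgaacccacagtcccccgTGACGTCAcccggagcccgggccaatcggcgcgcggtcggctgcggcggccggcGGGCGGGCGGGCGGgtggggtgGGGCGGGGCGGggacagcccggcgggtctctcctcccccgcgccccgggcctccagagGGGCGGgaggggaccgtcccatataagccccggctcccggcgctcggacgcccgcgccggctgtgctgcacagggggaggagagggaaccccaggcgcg
VIM: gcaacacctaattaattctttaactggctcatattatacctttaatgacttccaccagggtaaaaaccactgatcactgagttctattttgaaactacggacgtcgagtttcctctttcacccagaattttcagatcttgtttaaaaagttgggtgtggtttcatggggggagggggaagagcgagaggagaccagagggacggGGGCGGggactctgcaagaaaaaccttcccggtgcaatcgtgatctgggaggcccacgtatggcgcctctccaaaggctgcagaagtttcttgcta
ZEB1: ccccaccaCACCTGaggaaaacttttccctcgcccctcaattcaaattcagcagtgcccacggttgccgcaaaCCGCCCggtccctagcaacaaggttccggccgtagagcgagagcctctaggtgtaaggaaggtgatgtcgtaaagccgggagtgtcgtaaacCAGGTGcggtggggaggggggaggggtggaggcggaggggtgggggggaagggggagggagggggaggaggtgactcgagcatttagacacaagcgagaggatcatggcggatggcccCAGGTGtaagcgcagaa
The FN1 window held 1 cAMP response element, at position -183 from the start site, and 6 GC boxes, some of which overlap, and no E-box. Such elements were present in 1.85% and 45.0% of 35116 RefSeq promoter entries of the same length. The VIM window held 1 GC box. The ZEB1 entry held 3 copies of CACCTG, the E-box form bound by ZEB and SNAI proteins. It was picked from several ZEB1 entries for this count: another held 1 copy and the rest held 0. At least 1 copy was present in 20.6% of all entries. The full palindromic estrogen response element, searched as its consensus with any 3 bases between the arms, was in 0.057% of entries and in no entry of the 6 members that had one in the RefSeq table (FN1, VIM, ZEB1, ZEB2, PRRX1 and SPARC). These matches describe the letters in the windows and were not tested as binding sites.

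The table gives no detection call, so a background level was taken from 374 olfactory receptor genes, which an epithelial line is taken not to express. Their mean log2 signals had a median of 4.40 and reached 8.15, and the 95th percentile, 5.65, served as the level. A gene above the level can therefore still lie within the range of these receptor genes. The level was exceeded by 13826 of all genes (41.2%). By this measure the members fell into 3 classes: FN1 was above the level on all 6 arrays, VIM was above it on 1 array, and the other 7 genes were below it on all 6. For those 7, single array values ran from 3.62 to 4.90 in ERβ knockout cells and from 3.36 to 4.79 in control cells. The separation of FN1 from the rest was the same with the 99th percentile (6.30) as the level, whereas with the median of all genes (5.05) VIM passed on 5 of 6 arrays. VIM was read here by the brighter of its probe sets, which may not measure VIM mRNA, as described below. The dimmer VIM probe set was below 5.05 on all 6 arrays. Probe sets differ in how strongly they respond. Apart from the comparison with the background level, values of different genes are therefore not set against each other here. That comparison is itself approximate, and a low signal does not show that a transcript is absent.

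**Figure D1:**
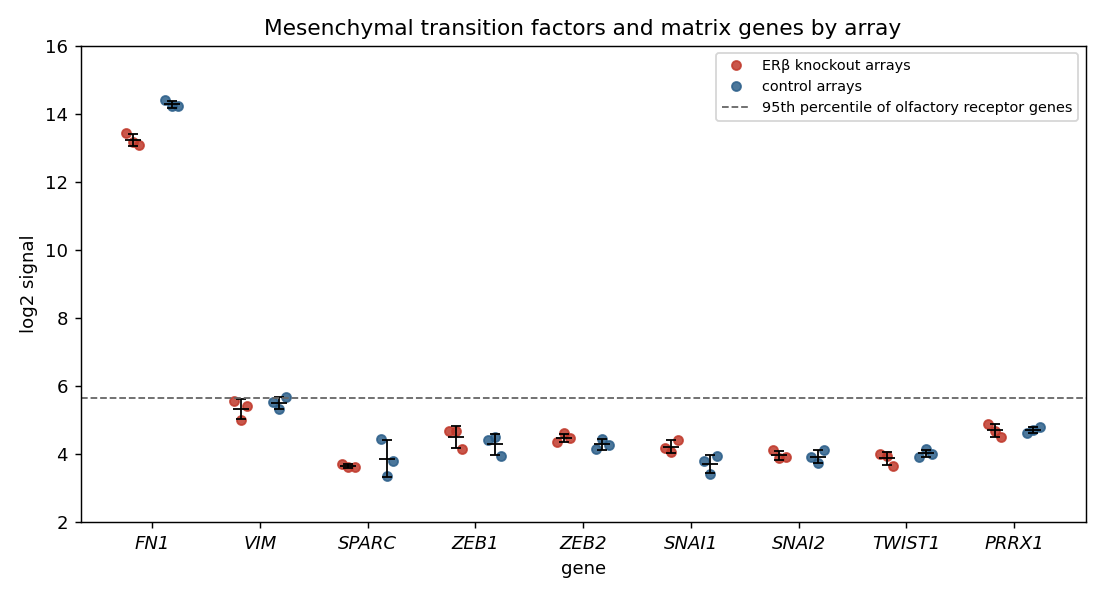
Log2 signal (vertical axis) of the 9 genes on the 3 ERβ knockout arrays (red, left) and the 3 control arrays (blue, right). Points are arrays, black bars are mean ± SD (n = 3 each) and the dashed line is the 95th percentile of olfactory receptor genes, 5.65. FN1 alone lies far above the line, with its knockout points all below its control points. VIM is shown by the brighter of its probe sets, which may not measure VIM mRNA.

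FN1, which codes for the secreted matrix glycoprotein that integrins bind, was the single member expressed well above background, and it was lower in the knockout. Its log2 signal was 13.43, 13.17 and 13.09 on ERβ knockout arrays 1, 2 and 3, against 14.40, 14.23 and 14.23 on control arrays 1, 2 and 3. The 3 knockout values all lay below the 3 control values, with a gap of 0.797 between the nearest arrays, and arrays of a group differed by at most 0.345. The means were 13.23 ± 0.18 in ERβ knockout and 14.29 ± 0.10 in control cells (SD, n = 3 each). FN1 fell by 1.06 on the log2 scale (SE 0.14, 95% interval -1.36 to -0.76), or 2.08-fold, with an adjusted p of 0.00065 in limma. In these bulk samples, fewer expressing cells and less RNA per cell cannot be told apart. The adjusted p stayed between 4.3e-06 and 0.0078 over 14 other settings, each array left out in turn included, and the difference between -1.16 and -0.99. FN1 remained 7.58 log2 units above the background level in knockout cells, so the fall was between expressed levels and not to background.

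Among the members, 1 of 9 passed the test, against 8.01% of all 33578 genes (4.81% higher and 3.21% lower) and 17.2% of the 13826 genes above the background level (10.2% higher and 6.96% lower). A count of 1 in 9 lies near these shares and is no result about the members as a group. Of all genes, 1.71% had a larger difference in either direction than FN1, and 229 of the 13826 genes above background fell by more.

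**Figure D2:**
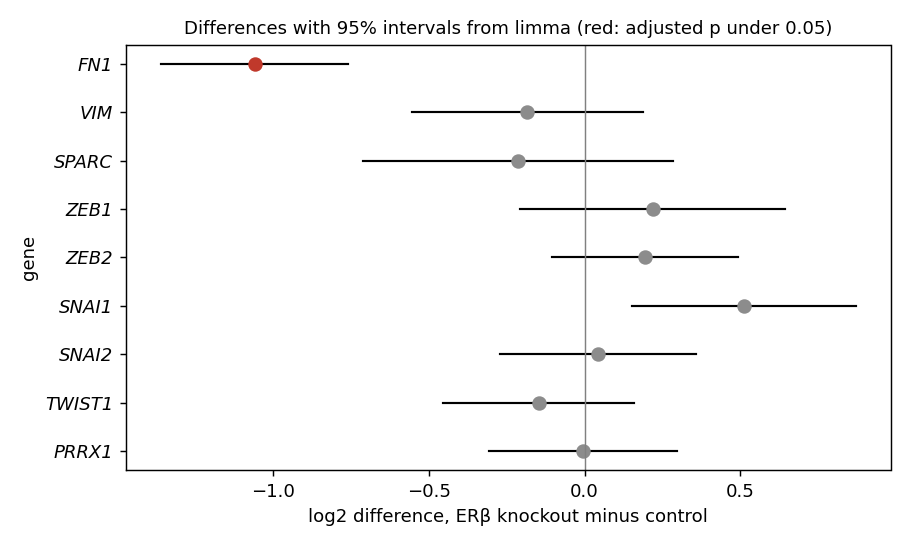
Log2 difference, ERβ knockout minus control (horizontal axis), with the 95% interval from limma for each of the 9 genes. The interval of FN1 runs from -1.36 to -0.76, and the other 8 genes, in grey, had adjusted p of 0.089 to 0.99. VIM is shown by the brighter of its probe sets.

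VIM, an intermediate filament protein of mesenchymal cells, lay just under the background level by the brighter of its probe sets. This probe set read 5.57, 5.00 and 5.41 in ERβ knockout cells, against 5.54, 5.32 and 5.67 in control cells. The groups overlapped, and only control array 3 exceeded the level. The difference was -0.18 (SE 0.17, 95% interval -0.55 to 0.19, adjusted p = 0.63). That probe set carries no Entrez identifier, and the 20 genes of known strand with the nearest probe set numbers are all on the minus strand, while VIM is on the plus strand. The other VIM probe set, numbered among 20 plus-strand genes and annotated with the Entrez identifier, was dimmer. It read 3.93, 3.85 and 3.89 in knockout cells, against 3.82, 4.26 and 3.86 in control cells, below the level on all 6 arrays, with a difference of -0.09 (SE 0.16). The probe set of VIM-AS1, the antisense RNA of VIM, also has a number close to that of the brighter one. These numbers place the brighter probe set with minus-strand genes, so it may not measure VIM mRNA, although its strand is not given. Under either choice, VIM did not pass the test.

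SPARC, a secreted glycoprotein that binds collagen, was below background throughout. It read 3.72, 3.63 and 3.62 in ERβ knockout cells, against 4.45, 3.36 and 3.79 in control cells. Control array 1 stood above the other arrays, and the control SD of 0.55 was the widest of the 9 genes. The difference of -0.21 (SE 0.23, 95% interval -0.71 to 0.28) did not pass (adjusted p = 0.69).

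None of the 6 transcription factors was above background on any array, and none passed the test. ZEB1 read 4.68, 4.70 and 4.15 in ERβ knockout cells, against 4.42, 4.51 and 3.94 in control cells, and its groups overlapped. ZEB2 read 4.36, 4.61 and 4.47 in knockout cells, against 4.15, 4.44 and 4.27 in control cells, also with overlap. Their differences were 0.22 (SE 0.19, 95% interval -0.21 to 0.64, adjusted p = 0.61) for ZEB1 and 0.19 (SE 0.13, 95% interval -0.10 to 0.49, adjusted p = 0.49) for ZEB2.

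SNAI1, encoding Snail, showed the largest uncalled difference of the 9 genes. It read 4.17, 4.07 and 4.43 in ERβ knockout cells, against 3.79, 3.41 and 3.93 in control cells. The groups did not overlap, by a margin of 0.135, as was so for 25.3% of all genes and for 13.1% of the olfactory receptor genes. The difference of 0.51 (SE 0.16, 95% interval 0.15 to 0.87) had an adjusted p of 0.089, between 0.059 and 0.31 over 12 other settings. The highest SNAI1 value lay 1.22 below the background level, so no fold is given. SNAI2, encoding Slug, read 4.12, 3.88 and 3.92 in knockout cells, against 3.93, 3.73 and 4.12 in control cells, a difference of 0.04 (SE 0.14, 95% interval -0.27 to 0.36, adjusted p = 0.92).

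TWIST1 read 4.01, 3.96 and 3.67 in ERβ knockout cells, against 3.93, 4.15 and 4.001 in control cells. PRRX1 read 4.90, 4.69 and 4.51 in knockout cells, against 4.63, 4.70 and 4.79 in control cells. Both pairs of groups overlapped. TWIST1 differed by -0.15 (SE 0.14, 95% interval -0.45 to 0.16, adjusted p = 0.64) and PRRX1 by -0.0044 (SE 0.14, 95% interval -0.31 to 0.30, adjusted p = 0.99). For transcripts at this signal the intervals bound the difference of the measured values, not of the RNA.

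Beyond the members, 12 further transition factors were measured, of which 0 rose and 1 fell, and 7 were below background on all 6 arrays. The share called was 8.33%, against 8.01% of all genes. The one that passed was TCF4, a basic helix-loop-helix factor, at 11.20, 11.11 and 11.07 in ERβ knockout cells, against 11.90, 11.85 and 11.94 in control cells. It fell by 0.77 (SE 0.12, adjusted p = 0.0022). TCF4 has 2 probe sets, and over 14 other settings the fall ran from 0.84 to 0.53 and the call was kept (highest adjusted p = 0.043). TWIST2, named here after its values were seen as the paralogue of TWIST1, was above background on all 6 arrays, at 6.84 ± 0.16 in knockout and 6.55 ± 0.26 in control cells (SD, n = 3 each), a difference of 0.29 that did not pass (adjusted p = 0.35). Of the antisense RNAs, 0 of 3 measured passed: ZEB1-AS1, transcribed divergently from ZEB1, was above background on all 6 arrays and differed by -0.15 (SE 0.20, adjusted p = 0.76). The miR-200 family and miR-205 repress ZEB1 and ZEB2. The 5 genes measured were all of the miR-200 family, with none for miR-205, and were below background on all 6 arrays. Of these 0 passed, and the largest difference was that of MIR141, -0.45 (SE 0.15, adjusted p = 0.11). Probe sets of miRNA genes do not separate mature miRNAs from their precursors.

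Epithelial factors and targets gave the opposite picture of expression. Of 10 measured factors that uphold epithelial identity, 9 were above background on all 6 arrays, and 2 rose and 0 fell in the knockout. Calls were made for 8.01% of all genes and for 17.2% of genes above background. A count of 2 in 10 lies near the latter share and is no result about these factors as a group. GRHL1, a grainyhead-like factor, was 9.63 ± 0.19 in ERβ knockout and 8.67 ± 0.24 in control cells, a rise of 0.95 (SE 0.16, adjusted p = 0.0033). ESRP1, an epithelial splicing regulator, was 17.44 ± 0.06 in knockout and 16.71 ± 0.06 in control cells, a rise of 0.74 (SE 0.12, adjusted p = 0.0029, SD over n = 3 each for both genes). GRHL2, the paralogue of GRHL1, was named after its values were seen. It read 13.54, 13.45 and 13.43 in ERβ knockout cells, against 13.92, 13.78 and 13.94 in control cells. The groups did not overlap, as was so for 25.3% of all genes, and the GRHL2 difference of -0.40 (SE 0.12) did not pass (adjusted p = 0.073). The list counted 1 gene lower after a repeated quantile normalization, under both filters on low signals and under the trend and robust fit. The 20 genes next to ESRP1 on chromosome 8 had a median difference of 0.47. Of these, 9 were called higher, against 10.2% of genes above background. Whether that shift has a part in the ESRP1 rise was not tested.

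Of 23 epithelial genes, chiefly of junctions and polarity, listed as targets of these repressors, 22 were above background on all 6 arrays. In the knockout 2 rose, 2 fell and 19 did not pass. The share called was 17.4%, against 8.01% of all genes and 17.2% of genes above background. The rises numbered 6 when only genes above the olfactory receptor level were tested and 4 under the trend and robust fit. CLDN1, a claudin, rose 2.82-fold (adjusted p = 5.3e-05) and CLDN3 2.59-fold (adjusted p = 6.0e-05). The neighbours of CLDN1 on chromosome 3 had a median difference of 0.68. Of these, 11 of 20 were called higher, against 10.2% of genes above background. PKP2, a desmosomal plakophilin, fell by 0.71 (SE 0.16, adjusted p = 0.019), and DSP, desmoplakin, by 0.49 (SE 0.13, adjusted p = 0.039). The call of DSP did not survive leaving out any single array (adjusted p between 0.060 and 0.13), and that of PKP2 was lost without knockout replicate 1 or 2 or control replicate 3 (highest adjusted p = 0.089). CDH1, which codes for E-cadherin and was named after its values were seen, was above background on all 6 arrays at 7.83 ± 0.20 in knockout and 7.80 ± 0.12 in control cells (SD, n = 3 each). Its difference was 0.02 (SE 0.14, adjusted p = 0.96).

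**Figure D3:**
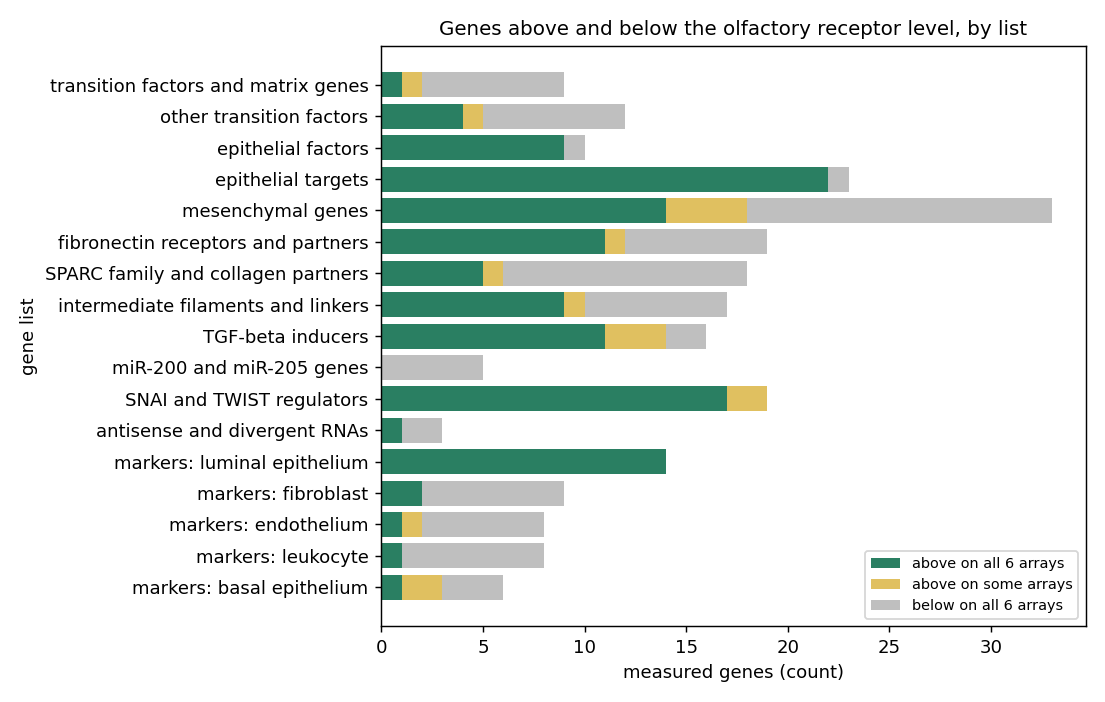
Number of measured genes (horizontal axis) in each list that were above the olfactory receptor level on all 6 arrays (green), on some (yellow) or on none (grey). Of the 9 transition factors and matrix genes, 7 were below on all 6 arrays, whereas 14 of 14 luminal epithelial markers were above on all 6.

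The label of an epithelial cancer line was checked against marker lists. All 14 measured luminal epithelial markers were above background on all 6 arrays, and 3 of them, GATA3, CLDN3 and KRT19, were called higher in the knockout. That is 21.4% called, against 8.01% of all genes and 17.2% of genes above background. Of 9 fibroblast markers 7 were below background on all 6 arrays, and COL1A1 and COL1A2 were above it. Of 8 endothelial, 8 leukocyte and 6 basal markers, 1 each was above background on all 6 arrays. Of all these markers of other cell types only CD68, a lysosomal protein also made by epithelial cells, passed, and it rose by 0.79 (adjusted p = 0.0042). ESR2 itself was below background, at 3.90, 4.08 and 4.01 in ERβ knockout cells, against 3.99, 3.69 and 4.16 in control cells, so the arrays could not check the knockout label. Of the reference genes, GAPDH and TBP did not pass, at 0.15 (adjusted p = 0.58) and -0.11 (adjusted p = 0.74). ACTB, cytoskeletal actin, rose by 0.52 (SE 0.13, adjusted p = 0.037), a call that did not survive leaving out any single array (highest adjusted p = 0.13).

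Other mesenchymal genes moved in both directions in the knockout. Among 33 with a probe set, 6 rose and 5 fell, while 22 missed the threshold, and 15 were below background on all 6 arrays. That is 33.3% called, against 8.01% of all genes and 17.2% of genes above background. The median difference was 0.11, against 0.02 for all genes. The largest rise was that of NT5E, the ecto-nucleotidase CD73, at 11.21, 11.24 and 11.24 in ERβ knockout cells, against 8.85, 9.03 and 8.64 in control cells. It rose 5.24-fold (adjusted p = 2.3e-06). TGFBI, a secreted integrin-binding protein, rose 2.29-fold (adjusted p = 0.0020) and CD44, the hyaluronan receptor, 1.99-fold (adjusted p = 0.0075). CD44 has 2 probe sets: the difference of 1.00 became 0.55 with their mean (adjusted p = 0.037), and the call was lost with all probe sets tested (adjusted p = 0.054). LOX, a collagen-crosslinking oxidase, was 5.78 ± 0.14 in knockout and 4.74 ± 0.36 in control cells (SD, n = 3 each). Since its control signal was below background, LOX was at least 1.10-fold higher (adjusted p = 0.0041). Its signal was near background: it exceeded that level on 2 of 3 knockout and 0 of 3 control arrays, and stayed below the 99th percentile level on all 6. The 20 genes next to LOX on chromosome 5 had a median difference of 0.41, with 8 called higher, against 10.2% of genes above background. The part of that shift in the rise of LOX was not tested.

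The genes that fell with FN1 included further matrix genes. PLOD2, a collagen lysyl hydroxylase, was 15.56, 15.89 and 15.81 in ERβ knockout cells, against 17.08, 17.22 and 17.14 in control cells, and fell by 1.39 (SE 0.13, adjusted p = 7.9e-05). THBS1, the matricellular protein thrombospondin-1, was 14.46, 14.42 and 14.37 in knockout cells, against 15.46, 15.36 and 15.55 in control cells, and fell by 1.04 (SE 0.12, adjusted p = 0.00033). Neither pair of groups overlapped. S100A4, a calcium-binding protein of motile cells, fell by 1.19 (SE 0.14, adjusted p = 0.00028) and FBN1, fibrillin-1, by 0.58 (SE 0.15, adjusted p = 0.035). The FBN1 call was lost without knockout replicate 1, 2 or 3 or control replicate 2 or 3 (highest adjusted p = 0.12). The count of genes that fell was 3 without knockout replicate 2 or 3 or control replicate 3.

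**Figure D4:**
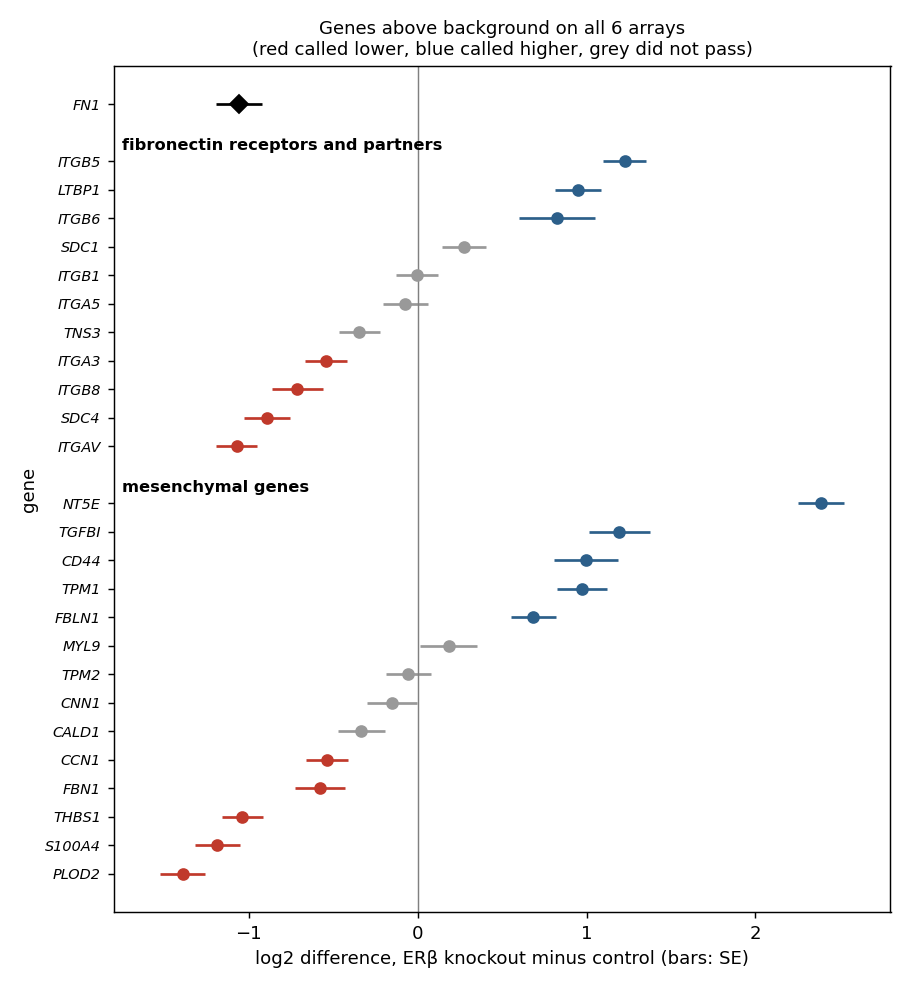
Log2 difference, ERβ knockout minus control (horizontal axis, bars SE), of FN1 and of the listed mesenchymal and fibronectin-binding genes that were above background on all 6 arrays. Red genes were called lower, blue genes higher and grey genes did not pass, and FN1, at -1.06, is the black diamond. Among the receptors, ITGAV at -1.07 and ITGB5 at 1.23 are the ends of the range.

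Receptors and partners of fibronectin differed in both directions. Among 19 with a probe set, 4 rose and 4 fell, 8 called in all (42.1%), against 8.01% of all genes and 17.2% of genes above background. The median difference was 0.10, against 0.02 for all genes, and 4 of the 8 calls, given below, depended on single arrays. ITGAV, the alpha V integrin subunit, was 13.06, 13.08 and 13.13 in ERβ knockout cells, against 14.17, 14.07 and 14.25 in control cells. It fell by 1.07 (SE 0.12, adjusted p = 0.00026), and its groups did not overlap. SDC4, syndecan-4, a heparan sulfate proteoglycan that binds fibronectin alongside integrins, fell by 0.89 (SE 0.14, adjusted p = 0.0021). The beta subunit ITGB8 fell by 0.71 (adjusted p = 0.013) and the alpha subunit ITGA3 by 0.54 (adjusted p = 0.023).

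The beta subunits that pair with alpha V did not move one way. ITGB5 was 11.07, 10.91 and 10.81 in ERβ knockout cells, against 9.71, 9.76 and 9.64 in control cells, and rose by 1.23 (SE 0.13, adjusted p = 0.00014). ITGB6 rose by 0.82 (SE 0.23, adjusted p = 0.0495), with overlapping groups. LTBP1, which tethers latent TGF-beta to matrix, rose by 0.95 (SE 0.14, adjusted p = 0.0014). TGM2, a transglutaminase that crosslinks fibronectin, was above background on 3 of 3 knockout and 1 of 3 control arrays, with a control mean of 5.43 below that level. It was at least 1.36-fold higher in the knockout (adjusted p = 0.040). The subunits of the classical fibronectin receptor, ITGA5 and ITGB1, named after their values were seen, were above background on all 6 arrays. They differed by -0.07 (adjusted p = 0.84) and -0.0021 (adjusted p = 0.997). ITGA5 was near background, at 6.03 in knockout and 6.10 in control cells, and stayed below the 99th percentile level on all 6 arrays.

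Some of these calls depended on single arrays. That of ITGB6 was lost without knockout replicate 1 or 3 or control replicate 1 or 2 (highest adjusted p = 0.17) and after a repeated quantile normalization. ITGB6 has 3 probe sets, its call was also lost with all probe sets tested, and its difference ran from 0.546 to 1.08 over the alternatives. That of TGM2 was lost without knockout replicate 2 or 3 or control replicate 1 or 2 (highest adjusted p = 0.145). That of ITGA3 was lost without knockout replicate 1, 2 or 3 or control replicate 1 or 3 (0.082 at most), and that of ITGB8 without knockout replicate 1 (0.062). The genes that rose numbered 2 without knockout replicate 3 or control replicate 1 or 2, and those that fell 2 without knockout replicate 1.

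Of 18 SPARC family members and collagen partners, 12 were below background on all 6 arrays, and 1 rose and 0 fell. The share called was 5.56%, against 8.01% of all genes. COL6A1, a collagen VI chain, was 7.33, 7.21 and 7.28 in ERβ knockout cells, against 5.80, 6.38 and 6.18 in control cells, and rose by 1.15 (SE 0.16, adjusted p = 0.00092).

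TGF-beta signalling is a known inducer of the transition. Of 16 measured genes of the pathway, which include its ligands, receptors and SMAD proteins, proteins that restrain it (SMAD7, SKI, SKIL and TGIF1) and BMP ligands, 1 rose and 4 fell. None of those 4 restraining genes, named after their values were seen, passed. Called genes were 31.2% of the list, against 8.01% of all genes and 17.2% of genes above background. The rises numbered 2 or 3 under both filters on low signals and the trend and robust fit. TGFB1, the ligand, was 5.08, 4.89 and 5.26 in ERβ knockout cells, against 6.57, 6.82 and 6.73 in control cells. All 3 knockout values were below background and all 3 control values above it, so TGFB1 was at least 2.09-fold lower (adjusted p = 3.9e-05). TGFBR1, the type I receptor, rose by 0.92 (SE 0.13, adjusted p = 0.0012). TGFBR2, the type II receptor, fell by 0.46 (SE 0.12, adjusted p = 0.047) and the co-receptor TGFBR3 by 0.62 (SE 0.15, adjusted p = 0.031). BMP7, a ligand known to oppose TGF-beta, was at least 1.06-fold lower (adjusted p = 0.024), with a knockout mean below background. Its signal exceeded background on 2 of 3 control arrays and stayed below the 99th percentile level on all 6. The TGFBR2 call did not survive leaving out any single array (adjusted p between 0.081 and 0.17), that of TGFBR3 was lost without knockout replicate 1 or 3 or control replicate 1 or 3 (0.12 at most) and that of BMP7 without knockout replicate 2 or 3 or control replicate 2 or 3 (0.11 at most). Without knockout replicate 3 or control replicate 3, only TGFB1 of the 4 falls was called, and 2 were called without any 1 of the other arrays.

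FN1 lies on the long arm of chromosome 2, and its neighbours were lower as well. Among the 20 nearest protein-coding genes above the median signal of all genes, 10 on each side in RefSeq order, 19 had a difference below 0, 11 were called lower and 0 higher. That is 55.0% called lower, against 6.79% of all 11906 such genes. Their median difference was -0.55, against 0.07 for such genes in general, and was -0.625 with 5 and -0.521 with 20 genes on each side. The adjacent gene ATIC, a purine synthesis enzyme, fell by 0.74 (adjusted p = 0.012), and of the insulin-like growth factor binding proteins on the other side, IGFBP2 fell by 1.89 (adjusted p = 2.2e-05) and IGFBP5 fell by 1.705 (adjusted p = 1.2e-05). ABCA12, a lipid transporter, fell by 2.49 (adjusted p = 2.3e-06). These 4 neighbours were named after their values were seen. FN1 was 0.51 lower than the neighbour median. The part of the shared shift in the fall of FN1 was not tested.

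**Figure D5:**
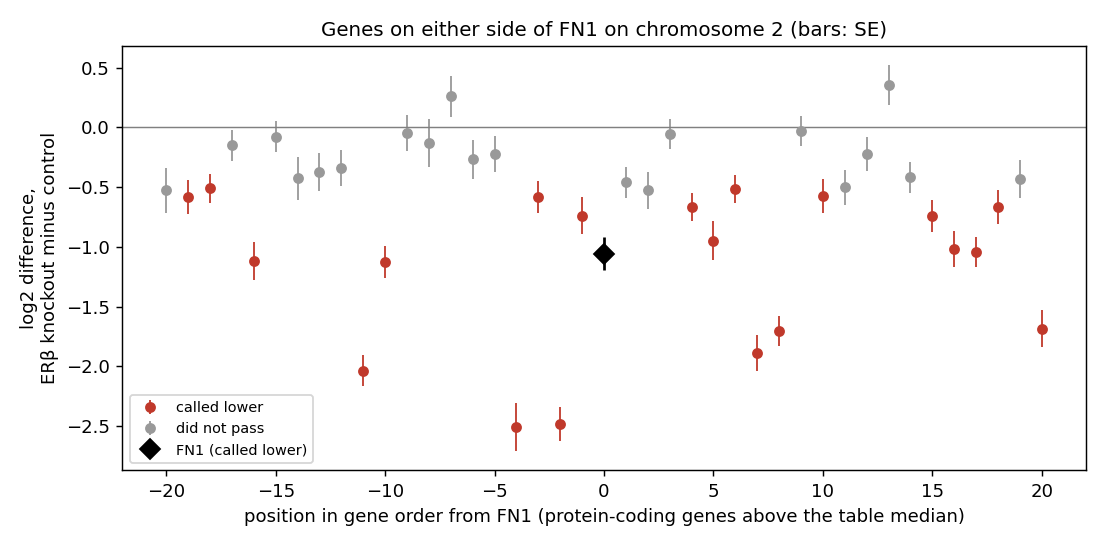
Log2 difference, ERβ knockout minus control (vertical axis, bars SE), of FN1 (black diamond) and the 20 protein-coding genes above the median signal on each side of it, by position in gene order (horizontal axis). Of these 40 neighbours, 38 lie below 0 and 20, in red, were called lower.

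The same count was made for the other members and, added after the values were seen, for called genes of the lists. Around VIM, ZEB1, ZEB2, SNAI1, SNAI2, TWIST1, PRRX1 and SPARC the neighbour medians ran from -0.02 to 0.34, with at most 4 of 20 called lower. Of 20 neighbours each, 9 were called higher around ZEB2, 6 around ZEB1 and 6 around SNAI2. Among all genes above the background level, 10.2% were called higher. ITGAV, also on chromosome 2, had a neighbour median of -0.33 with 7 of 20 called lower, and PLOD2 on chromosome 3 had -0.36 with 7 of 20. Around THBS1, S100A4, SDC4 and TGFB1, which fell too, the neighbour medians were 0.02, 0.09, -0.0004 and -0.07, with at most 3 of 20 called lower.

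The genes whose profiles were most like that of FN1 were found among 11905 protein-coding genes above the median signal. Likeness was the mean absolute difference over 6 arrays between profiles each centred on its own mean. WASHC5, a subunit of the WASH complex on endosomes, differed by 0.049 on average and fell by 1.00 (adjusted p = 0.00081). GJC1, a connexin, differed by 0.053, and MCF2L, a guanine nucleotide exchange factor, by 0.056. The measure chiefly picks genes with a similar group difference, and says nothing of function.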

How the data were processed

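Total RNA of 6 KPL4 samples was hybridised to Affymetrix arrays as biotin-labelled cDNA, per the labels' protocols. The authors deposited 1 log2 signal per probe set and array. The submitters' processing notes name RMA and the Transcriptome Analysis Console, and their versions and the genome build are not given in the sources used here. Such normalization removes shifts that a whole array shares. That the scale is log2 was judged by the range of values, 1.92 to 19.9. A share of 0.567% exceeds 16, so large folds may be stretched.

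Of 134748 probe sets, 35528 had 1 symbol, 1119 several and 98101 none listed. The brightest probe set stood for each of 33578 genes. Groups were compared with limma 3.58.1 (R 4.3.3, lmFit and eBayes, no block), two-sided, adjusted by Benjamini-Hochberg over all genes, with a threshold of 0.05. The number of arrays, 3 per group, limits precision. Array medians were 4.08 to 4.11. Across genes, r was 0.995 to 0.997 within and 0.986 to 0.988 between groups. RefSeq (GRCh38.p14) served for gene order and promoter sequences.

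"At least" folds use the background level for the dimmer group. Named genes were all members, per list up to 4 called genes in each direction (otherwise the largest difference), the 3 most alike genes and the checks. The members and lists were chosen with earlier results of these data known. Alternatives were 2 scalings, 2 filters, another moderation, mean of probe sets, all probe sets, a replicate block and leaving out each array.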

Additional observations from a re-analysis of the deposited data

How the results depend on the processing

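FN1 kept its direction and its call under all 14 alternatives, and 0 of the other 8 members passed under any alternative in which they were tested. Over the alternatives VIM, ZEB1, ZEB2, SNAI1 and TWIST1 kept their sign, SNAI2, PRRX1 and SPARC did not, and the differences of these 8 stayed between -0.465 and 0.62. Over all genes, 2691 were called, and 1160 with all probe sets tested, where the adjustment covers more tests. In the related lists, 38 genes were called, and 21 in that setting. Other settings gave more calls: 3518 over all genes and 46 in the lists with genes above the table median alone, 3605 and 50 with genes above the olfactory receptor level alone, and 3555 and 50 with the trend and robust fit. With each array left out in turn, 1668 to 2266 genes were called over the whole table (1668 without knockout replicate 2), 26 to 30 in the lists and 1 member each time. Of 530 values of called list genes under alternatives, 435 kept the call, 95 lost it and 0 changed sign. Repeating the quantile normalization moved the median of all genes to 0.017 and equal array medians to 0.037, against 0.022. Replicate numbers did not pair the samples: deviations of same-numbered arrays correlated at -0.019, -0.010 and -0.030. With the number as a replicate block, 2303 genes, 31 list genes and 1 member were called. Signals near background limit what can be said of the 8 genes other than FN1.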

Other observations

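Vimentin belongs to the intermediate filament family, with the keratins, the nuclear lamins and other filament proteins. Of 17 intermediate filament and linker genes measured, 9 were above background on all 6 arrays, and 3 rose and 0 fell. The share called was 17.6%, against 8.01% of all genes and 17.2% of genes above background. KRT19, a simple epithelial keratin, was 14.99, 14.88 and 14.80 in ERβ knockout cells, against 13.65, 13.70 and 13.58 in control cells, and rose by 1.25 (SE 0.12, limma adjusted p = 0.00010). LMNB1, lamin B1, rose by 0.54 (adjusted p = 0.018) and SYNM, synemin, a filament protein that assembles with vimentin, by 0.53 (adjusted p = 0.041). The SYNM call did not survive leaving out any single array (adjusted p between 0.052 and 0.15), and that of LMNB1 was lost without knockout replicate 1 or 2 or control replicate 1 or 3 (highest adjusted p = 0.074). Without any 1 of these 4 arrays, KRT19 was the only call among the rises, and without control replicate 3 a fall was called as well. The falls numbered 1 after a repeated quantile normalization and under both filters on low signals, and 3 under the trend and robust fit. PLEC, the linker plectin, named after its values were seen, differed by -0.63 (SE 0.18) and did not pass (adjusted p = 0.055). Its groups did not overlap, as was so for 25.3% of all genes.

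Genes whose products stabilise, degrade or assist SNAI and TWIST proteins were mostly expressed, while SNAI1, SNAI2 and TWIST1 were below background and TWIST2 was above it. Of 19 measured, 17 were above background on all 6 arrays, and 1 rose and 2 fell. Called genes were 15.8% of the list, against 8.01% of all genes and 17.2% of genes above background. AJUBA, a LIM protein that serves as a SNAI co-repressor, was 7.86, 7.70 and 8.06 in ERβ knockout cells, against 8.80, 8.88 and 9.09 in control cells, and fell by 1.05 (SE 0.14, limma adjusted p = 0.00092). CTBP1, a co-repressor of ZEB proteins, fell by 0.52 (adjusted p = 0.042) and FBXO11, an F-box protein, rose by 0.51 (adjusted p = 0.027). The call of CTBP1 did not survive leaving out any single array (highest adjusted p = 0.14), and that of FBXO11 was lost without knockout replicate 1, 2 or 3 or control replicate 1 or 2 (0.0998 at most). The list counted 0 rises without knockout replicate 1, 2 or 3 or control replicate 1, and 1 fall whichever array was left out. The rises numbered 0 after a repeated quantile normalization, with all probe sets tested and with the replicate block, and 3 or 4 under both filters and the trend and robust fit.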
